A study of Mus musculus with 6 samples.

Results

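The genes described here encode the factors that start protein synthesis and carry it forward, the eukaryotic initiation factors (eIF) and elongation factors (eEF). They were chosen by name alone, as genes with 1 annotated symbol that begins with Eif1 to Eif6, Eef1 or Eef2, leaving out the eIF2 kinases (Eif2ak genes) and the Y-linked Eif2s3y. This gave 53 genes, 42 for initiation and 11 for elongation, out of 18193 genes measured. Each gene was represented by its probe set (a group of array probes for one transcript) with the highest mean over the 6 arrays. Names such as Eif1, Eif2s1, Eif3g, Eif4g1 and Eef1g were not analysed here.

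The cells were sorted from mouse bone marrow as Lin-Sca1+CD150+CD48+, a gate that the study calls committed progenitors. The 3 dKO arrays came from MxCre c-myc flox2 N-myc flox2 mice, each array from a pool of 3 mice. The 3 control arrays came from c-myc flox2 N-myc flox2 mice, each from a pool of 2 mice. Both groups were 8 weeks old, on a mixed background, and received pI-pC on 2 days, with 3 days between the last dose and the sort. MxCre is a Cre recombinase under the interferon-responsive Mx1 promoter, which acts in many tissues. Only dKO mice carried it, so its own effect cannot be told apart from the loss of both Myc genes. For control 1 the tissue entry reads LT-HSCs, although title and sort markers are those of the remaining arrays.

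Initiation assembles a small ribosomal subunit with eIF1, eIF1A, eIF3, eIF5 and the eIF2-bound initiator tRNA, and brings it to an mRNA whose cap is held by the eIF4 proteins. Elongation then uses eEF1A to deliver each charged tRNA and eEF2 to move the ribosome along. MYC proteins are known to drive growth partly by raising the output of genes for protein synthesis, and several of these factors are made from TOP mRNAs, which start with a run of pyrimidines and are controlled together with those of the ribosomal proteins.

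Levels are log2 values made by the authors with RMA, a method that removes background, equalizes the arrays and combines the probes of each probe set. Myc stood at 7.99, 7.87 and 7.44 in dKO 1 to 3, against 10.79, 10.95 and 10.47 in control 1 to 3, and the Mycn probe set with the widest gap stood at 4.42, 3.28 and 4.47 in dKO, against 9.57, 8.93 and 9.48 in control. The brightest Mycn probe set, which stands for the gene among the 18193, changed by -0.83. Its groups overlapped and it did not pass (limma, adjusted p over all probe sets = 0.161). The last one changed by 0.34 and did not pass. Slamf1 (CD150) and Cd48, genes of the gate, did not pass the threshold, nor did the blood cell genes Ptprc and Kit, which are not in the gate. The summed level of these 4 (log2 of the summed linear values) lay between 12.24 and 12.77 in dKO and between 12.37 and 12.45 in control. Markers of other blood cells moved with genotype. Of 10 T and NK cell markers 8 were higher in dKO, and Cd3e and Cd3g did not pass. In dKO their sum was weighted most by Gzmb, at a mean of 12.57, against 7.03 in control. The summed level of the 10 lay between 13.24 and 13.49 in dKO and between 10.34 and 10.63 in control. That of 8 megakaryocyte markers lay between 13.24 and 13.50 in dKO and between 11.52 and 11.54 in control (5 higher), and that of 7 mast cell and basophil markers between 12.28 and 12.85 in dKO and between 10.69 and 11.20 in control (5 higher). That of 9 monocyte and granulocyte markers lay between 10.72 and 11.97 in dKO and between 12.99 and 13.68 in control (5 lower), that of 8 lymphoid progenitor and B cell markers between 9.78 and 10.18 in dKO and between 11.62 and 12.23 in control (4 lower), and that of 6 erythroid markers between 12.18 and 12.73 in dKO and between 12.40 and 12.57 in control (1 higher, 1 lower). Their part in the results below was not tested. Xist RNA was present in dKO 1 (10.50) and control 1 (9.10), and stood between 5.03 and 5.86 in the other 4 arrays.

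Of the 53 translation factor genes, 6 were lower and 1 was higher in dKO (limma, Benjamini-Hochberg adjusted p under 0.05 over all genes). The lower ones were Eif2a, Eif3f, Eif3h, Eif4b, Eef1b2 and Eef2, and the higher one was Eef2k, the kinase that inactivates the eEF2 protein. Their sizes lay between 1.62-fold for Eif3h and 2.02-fold for Eif2a. The shares were 11.3% lower and 1.89% higher, against 2.85% lower and 3.12% higher over all genes (5.97% in either direction). Among the 10158 genes with a mean log2 level of at least 6, where 49 of the translation factor genes lay, 4.33% were lower and 4.61% higher. The median log2 fold change (dKO minus control) of the 53 was -0.07, against 0.05 over all genes. In cells sorted in bulk, fewer cells of a type and less RNA per cell cannot be told apart.

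Most of the family did not separate the groups. The arrays of dKO and control overlapped for 33 of the 53 genes, while 18 lay lower and 2 higher in every dKO array than in any control array. Over all genes the groups did not overlap for 10.7% lower and 12.7% higher. Among the 10158 genes with a mean log2 level of at least 6, 1646 lay lower and 1501 higher. For the 49 translation factor genes in that range it was 16 and 2. Members varied little within a group, with a median SD over 3 arrays of 0.17 in dKO and 0.13 in control, and 35 of the 53 had the larger SD in dKO. The number of lower genes changed as arrays were left out. It was 1 without control 3, 2 without control 2 or dKO 1, and 3 without dKO 2. It was 4 without control 1, 6 without dKO 3 and 0 without dKO 1 and control 1 together (the arrays with Xist). With array weights it was 10. The number called over all genes also fell, from 1086 to between 572 and 1081 with 1 array left out.

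**Figure D1:**
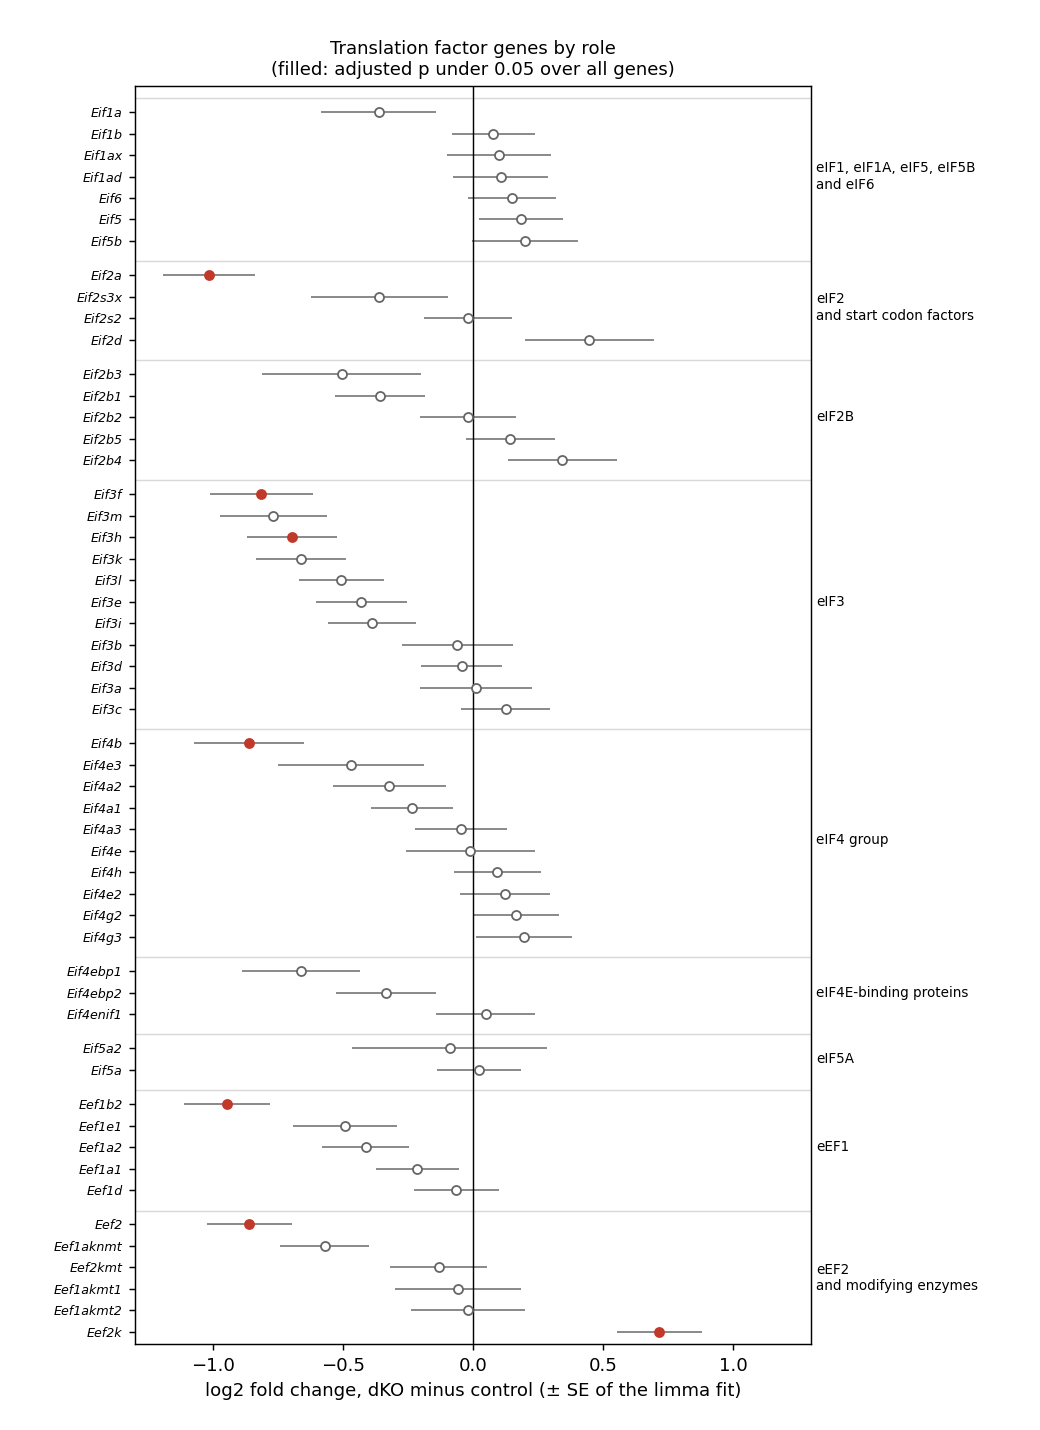
Log2 fold change (dKO minus control, x axis) of the 53 translation factor genes, grouped by role, with bars for the standard error of the limma fit and filled points for the 7 genes past the threshold. The 6 lower genes lie between -1.02 and -0.70 and Eef2k at 0.72, while the 7 genes of the eIF1, eIF1A, eIF5, eIF5B and eIF6 group at the top lie between -0.36 and 0.20.

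Among the elongation factors the exchange factor subunit Eef1b2 and the translocase Eef2 fell, and Eef2k rose. Eef1b2, which reloads eEF1A with GTP, stood at 11.71, 11.84 and 11.55 in dKO, against 12.70, 12.65 and 12.59 in control. All 3 dKO arrays were below every control array, and the fall was 0.95 ± 0.17 on the log2 scale (SE), or 1.93-fold (limma, adjusted p = 0.0105). Of the 7 calls it was the one that no single array decided, with adjusted p up to 0.0494 without control 2.

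Eef2, the GTPase that moves the ribosome by one codon, stood at 11.17, 11.22 and 11.38 in dKO, against 12.06, 12.10 and 12.19 in control. The groups were apart by several times their spread, and the fall was 0.86 ± 0.16 or 1.82-fold (adjusted p = 0.0147). The call was lost without control 3 (adjusted p = 0.0772), control 2 (0.0618) or dKO 1 (0.0582).

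Eef2k, whose product phosphorylates eEF2 and so slows elongation, stood at 12.13, 12.02 and 12.09 in dKO, against 11.34, 11.50 and 11.25 in control. It was higher in every dKO array, by 0.72 ± 0.16 or 1.64-fold (adjusted p = 0.0337). This probe set is of the _s_at kind, whose probes can match more than one transcript. The other Eef2k probe sets changed by 0.66 and 0.31, each also higher in all 3 dKO arrays, and did not pass, so Eef2k was not called with _x_at and _s_at probe sets left out (adjusted p = 0.0846). The call was kept without dKO 3 (adjusted p = 0.0482) and lost without each of the other arrays, with adjusted p up to 0.153 without control 3.

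The remaining eEF1 genes did not pass. Eef1a1, the tRNA-delivering GTPase itself, stood at 12.91, 12.997 and 12.80 in dKO, against 13.12, 13.13 and 13.09 in control, a change of -0.21 ± 0.16 (adjusted p = 0.567). Its groups did not overlap. The highest value in the whole table was 13.899, and whether levels near it are compressed was not tested. Eef1e1, whose product sits in the complex of tRNA synthetases, changed by -0.49 ± 0.20, and Eef1a2, the form of eEF1A known from muscle and nerve, by -0.41 ± 0.17 at a level of 4.73 in dKO and 5.15 in control. Both were lower in all 3 dKO arrays. Eef1d, another exchange factor subunit, changed by -0.07 ± 0.16 in its brightest probe set and by -0.24 and -0.63 in the next ones, and did not pass in any of its 4.

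Of the 4 measured methyltransferases that modify elongation factors, 0 passed. With 5.97% of all genes passing in either direction, this does not set so short a list apart. Eef1aknmt, which methylates eEF1A, changed by -0.57 ± 0.17 (adjusted p = 0.0986) with all dKO arrays lower, at a level of 5.12 in dKO and 5.69 in control, and its other probe sets changed by 0.25 and -0.63. Eef2kmt, the eEF2 methyltransferase, changed by -0.13, and Eef1akmt1 and Eef1akmt2, methyltransferases of eEF1A, by -0.06 and -0.02.

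**Figure D2:**
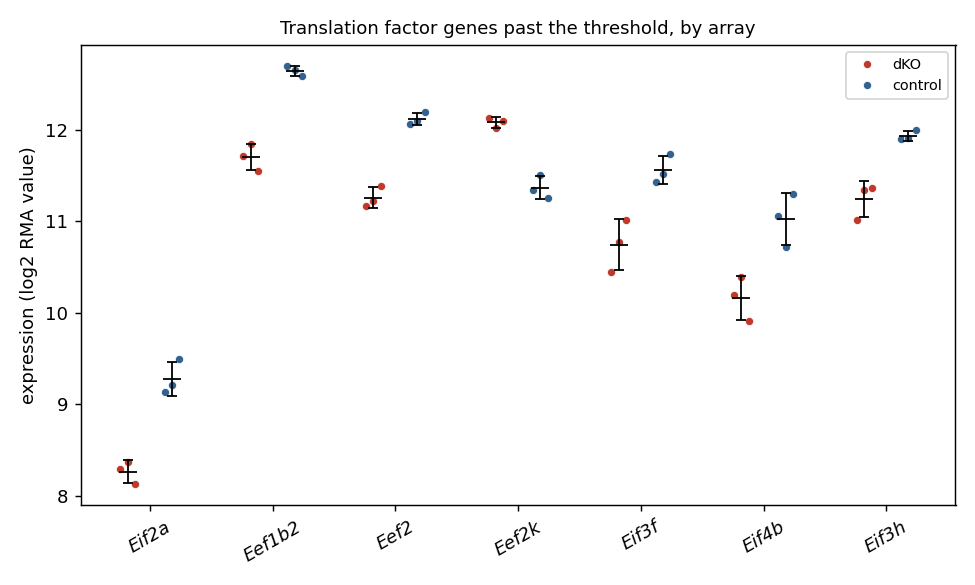
Log2 RMA level (y axis) in each array of the 7 translation factor genes past the threshold, dKO left and control right in each pair, with bars for the mean and SD of 3 arrays. In all 7 the groups are apart, and Eef2k alone is higher in dKO.

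Genes known to be made from TOP mRNAs held 5 of the 6 falls. The counts for TOP genes were chosen after the data were seen, so they describe these values and do not test a TOP effect. The TOP list had 8 measured translation factor genes, namely Eef1a1, Eef1b2, Eef1d, Eef2, Eif3e, Eif3f, Eif3h and Eif4b. Of these 5 were lower and 0 higher, with a median log2 fold change of -0.76, and 7 of the 8 had all dKO arrays below all control arrays. At an unadjusted p under 0.05 in either direction the number was 6 of 8, against 176 of the 717 genes with probe sets at least as bright as the dimmest TOP gene. Of the 45 translation factor genes outside the list, 1 was lower (Eif2a) and 1 higher (Eef2k), with a median of -0.04.

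The TOP genes had bright probe sets, so they were also set beside genes at or above the level of the dimmest of them, Eif4b. Of 717 such genes 4.60% were lower, and 22.5% had all dKO arrays below control. Of the 11 translation factor genes in that range but outside the list, 0 were lower and Eef2k was higher (limma; 2 had an unadjusted p under 0.05). The number of lower TOP genes was 1 without control 2, control 3 or dKO 1, 2 without control 1 or dKO 2, 0 without the pair of arrays with Xist, and 3 with cyclic loess, with probe sets averaged per gene, with Xist as a covariate or with the replicate block.

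The start regions of 4 of the called genes are shown because MYC with its partner MAX binds the E-box CACGTG, which reads the same on both strands. Each is the 120 bases before the annotated start (RefSeq, GRCm38.p6), with any CACGTG in capitals and positions counted back from the start, where -1 is the base before it. They are Eef2 at chr10:81176511-81176630, Eif3f at chr7:108934295-108934414, Eef2k at chr7:120842711-120842830 and Eef1b2 at chr1:63176711-63176830, all on the plus strand.
Eef2: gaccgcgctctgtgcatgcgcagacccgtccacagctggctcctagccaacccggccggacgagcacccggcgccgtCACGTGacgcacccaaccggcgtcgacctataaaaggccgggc
Eif3f: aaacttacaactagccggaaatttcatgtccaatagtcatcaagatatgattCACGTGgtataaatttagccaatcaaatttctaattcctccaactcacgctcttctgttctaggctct
Eef2k: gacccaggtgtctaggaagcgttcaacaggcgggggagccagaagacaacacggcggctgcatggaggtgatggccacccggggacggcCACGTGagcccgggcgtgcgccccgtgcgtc
Eef1b2: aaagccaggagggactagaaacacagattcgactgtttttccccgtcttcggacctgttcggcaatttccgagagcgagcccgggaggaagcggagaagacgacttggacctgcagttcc

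The motif begins at -43 in Eef2, at -68 in Eif3f and at -31 in Eef2k, and is not found in the 300-base windows (250 before to 50 after the start) of Eef1b2, Eif2a or Eif4b. So it stood before 2 of the 5 lower genes that had a window and before the 1 higher gene, in 1 of its 3 windows. Windows were found for 42 of the 53 genes, and 12 of these genes held the motif (28.6%), against 10.2% of all measured genes with a window. By window it was 14 of 56 (25.0%), against 8.72% of the windows of measured genes and 7.15% of all 32851 windows in the table. Among translation factor genes that did not pass it was 9 of 36 genes (25.0%), among them Eif4a1, Eif4e, Eif4h, Eif5a and Eif3k. A match is a stretch of letters and not a measured binding site.

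In eIF3, the largest initiation complex, which holds the small subunit ready and spans the mRNA channel, 2 of the 11 measured subunit genes were lower and 0 higher. The shares over all genes were 2.85% lower and 3.12% higher. Eif3f stood at 10.45, 10.78 and 11.01 in dKO, against 11.43, 11.52 and 11.73 in control. The dKO arrays spread more widely but stayed below control, with a fall of 0.81 ± 0.20 or 1.76-fold (adjusted p = 0.0434). Eif3h stood at 11.01, 11.34 and 11.36 in dKO, against 11.90, 11.91 and 11.9965 in control. Its control arrays lay close together, and it fell by 0.70 ± 0.17 or 1.62-fold (adjusted p = 0.0486).

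Both calls lay near the threshold and were kept without dKO 3 (adjusted p = 0.0286 for Eif3f and 0.0459 for Eif3h). They were lost without each of the other 5 arrays, with adjusted p up to 0.171 and 0.178 without control 3. Under cyclic loess Eif3f had adjusted p = 0.0599 and Eif3h 0.0531, and Eif3h had 0.221 with the mean of its 3 probe sets, of which the others are dim (3.53 and 3.26 over the 6 arrays). The number of lower eIF3 genes was 3 without dKO 3, 0 without each of the other arrays, 4 with the filter on dim genes, and 5 with a variance trend or with array weights.

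The other eIF3 genes held some values well below 0 and some near it. Eif3k stood at 9.85, 10.02 and 10.23 in dKO, against 10.60, 10.73 and 10.75 in control, a change of -0.66 ± 0.17 that missed the threshold (adjusted p = 0.0585). Eif3m stood at 9.50, 9.45 and 8.88 in dKO, against 10.10, 9.94 and 10.10 in control, a change of -0.77 ± 0.20 (adjusted p = 0.0622). Eif3l stood at 9.60, 9.75 and 9.90 in dKO, against 10.25, 10.29 and 10.23 in control, a change of -0.51 ± 0.16 (adjusted p = 0.123). In these 3, as in Eif3e (-0.43 ± 0.18) and Eif3i (-0.39 ± 0.17), every dKO array was below every control array.

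The remaining subunits did not share this. Eif3a, which organizes the complex, stood at 12.05, 12.23 and 11.74 in dKO, against 12.31, 11.68 and 11.99 in control, a change of 0.01 ± 0.22. Eif3c, its partner, changed by 0.12 ± 0.17, Eif3b, which carries the RNA-binding module, by -0.06 ± 0.21, and Eif3d, a cap-binding subunit, by -0.04 ± 0.16. In each of these the groups overlapped. The octamer at the centre of eIF3 is formed by 8 subunits (a, c, e, f, h, k, l and m). Of these 6 had all dKO arrays below control, with a median of -0.58. Outside the octamer 1 of 3 did (Eif3i), with a median of -0.06. Over all genes the share was 10.7%. It was larger among bright genes, and the octamer genes had mean levels of at least 9.66. Of the 10158 genes with a mean log2 level of at least 6, 1646 had all dKO arrays below control. Of the 717 genes at least as bright as Eif4b it was 22.5%. The grouping by octamer was made after the values were seen and was not tested.

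**Figure D3:**
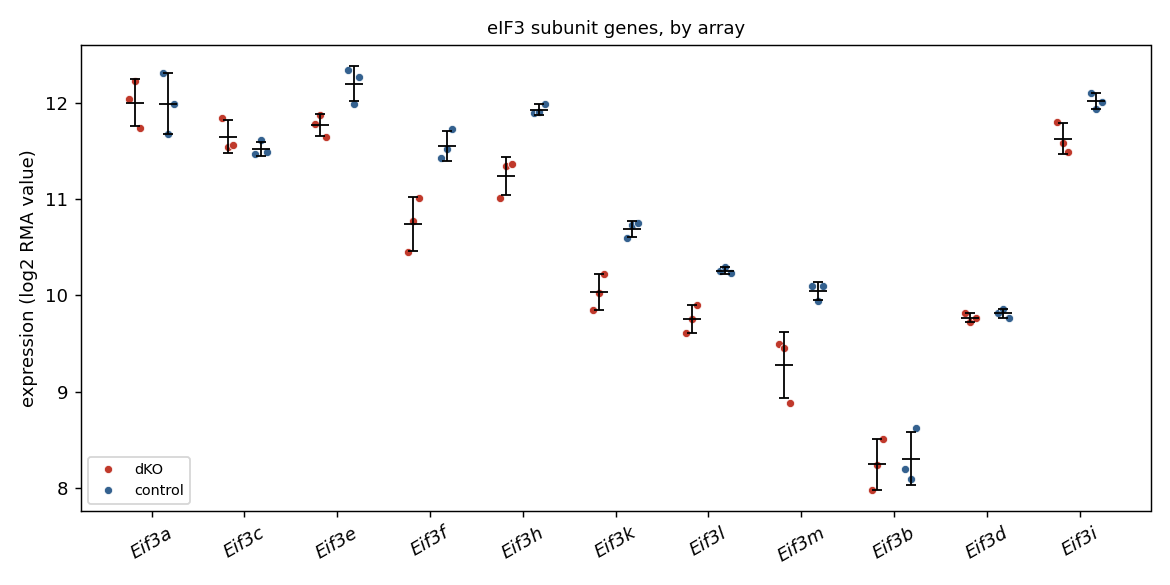
Log2 RMA level (y axis) of the 11 eIF3 subunit genes in each array, dKO left and control right in each pair, with bars for the mean and SD of 3 arrays; the 8 octamer subunits come first. Eif3e, Eif3f, Eif3h, Eif3k, Eif3l, Eif3m and Eif3i lie lower in all dKO arrays, and Eif3a, Eif3c, Eif3b and Eif3d overlap.

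The eIF4 proteins bind the cap and unwind the start of the mRNA. Among the 10 measured genes of this group 1 was lower and 0 higher, against 2.85% and 3.12% of all genes. Eif4b, whose product stimulates the helicase eIF4A, stood at 10.19, 10.39 and 9.91 in dKO, against 11.06, 10.72 and 11.29 in control. It fell by 0.86 ± 0.21 or 1.82-fold (adjusted p = 0.045), and the call was lost without each array in turn, with adjusted p from 0.0571 to 0.176. Its other probe sets gave tighter values. One stood at 9.93, 9.89 and 9.94 in dKO, against 10.78, 10.57 and 10.83 in control, and the last at 9.70, 9.94 and 9.59 in dKO, against 10.66, 10.58 and 10.66 in control. Both were lower, by 0.80 and 0.89, with adjusted p over all probe sets of 0.0296 and 0.0227, whereas the brightest one had 0.0603 in that fit.

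The other 9 measured genes of the eIF4 group did not pass, and Eif4g1 was not analysed here. Eif4e, the cap-binding protein, changed by -0.01 ± 0.25, with dKO arrays at 9.62, 9.85 and 8.88, against 9.56, 9.40 and 9.44 in control. The helicase genes Eif4a1 and Eif4a2 changed by -0.23 ± 0.16 and -0.32 ± 0.22, and Eif4a3, a relative in the exon junction complex, by -0.05. Eif4g2, a scaffold that lacks the eIF4E site, stood at 11.33, 11.40 and 11.10 in dKO, against 11.10, 11.07 and 11.16 in control, a change of 0.16 ± 0.17. Eif4g3, a further scaffold, changed by 0.20, Eif4h, a relative of Eif4b in function, by 0.09, Eif4e2, which competes for the cap, by 0.12, and Eif4e3 by -0.47 ± 0.28. The range of the 9 genes that did not pass was -0.47 to 0.20.

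The proteins that hold eIF4E away from the scaffold until mTORC1 phosphorylates them did not pass either. Eif4ebp1 stood at 7.24, 7.41 and 7.46 in dKO, against 7.56, 8.35 and 8.20 in control, a change of -0.66 ± 0.23 (adjusted p = 0.145). It was lower in all dKO arrays and passed downwards without control 1 (-0.90, adjusted p = 0.0453). Eif4ebp2 stood at 8.47, 8.61 and 8.25 in dKO, against 9.02, 8.77 and 8.54 in control, a change of -0.34 ± 0.19. All 5 of its probe sets were below 0, from -0.62 to -0.34, and 3 of them had every dKO array below control. Eif4enif1, which carries eIF4E into the nucleus, changed by 0.05.

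Among the factors that bring in the initiator tRNA, Eif2a fell. Its product is a single protein distinct from the eIF2 complex, whose alpha subunit is encoded by Eif2s1. Eif2a stood at 8.29, 8.37 and 8.12 in dKO, against 9.13, 9.21 and 9.49 in control. The gap between the groups was wider than the range within either, and the fall was 1.02 ± 0.18 or 2.02-fold (adjusted p = 0.0104). A dimmer probe set also passed (-1.51), and another changed by -0.23. The call was lost without control 3 (adjusted p = 0.056).

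Subunits of eIF2 and of its exchange factor eIF2B did not pass. Eif2s2, the beta subunit, stood at 11.73, 11.40 and 11.60 in dKO, against 11.56, 11.68 and 11.55 in control, a change of -0.02 ± 0.17. Eif2s3x, the X-linked gamma subunit, stood at 10.68, 10.25 and 9.71 in dKO, against 10.79, 10.26 and 10.67 in control, a change of -0.36 ± 0.26. In this probe set the highest array of each group was the one with Xist, dKO 1 and control 1. In another Eif2s3x probe set control 2 was above control 1 (9.94 against 9.81). Eif2d, which can also deliver initiator tRNA, changed by 0.45 ± 0.25, and all 6 of its probe sets were above 0.

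The 5 eIF2B genes lay on both sides of 0, from -0.51 for Eif2b3 to 0.34 for Eif2b4, with adjusted p of at least 0.324. Eif2b1 had the smallest p. It stood at 7.44, 7.64 and 7.56 in dKO, against 7.98, 7.71 and 8.04 in control, a change of -0.36 ± 0.17, and was lower in all dKO arrays. Eif2b2, the brightest of them, stood at 8.57, 8.36 and 8.60 in dKO, against 8.34, 8.79 and 8.47 in control, a change of -0.02.

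The 7 genes for factors of scanning and subunit joining changed by -0.36 to 0.20 in their brightest probe sets. Of these 0 passed in either direction (limma), against 5.97% of all genes. An unadjusted p under 0.05 was found for 0 of them, against 3318 of all 18193 genes. Against these shares, counts of 0 do not set a list this short apart. Eif5, which triggers GTP hydrolysis by eIF2, stood at 10.97, 11.13 and 11.16 in dKO, against 10.93, 10.97 and 10.81 in control, a change of 0.18 ± 0.16, but 2 of its 5 probe sets were lower in every dKO array (-0.22 and -0.46). Eif5b, which joins the subunits, changed by 0.20, Eif6, which keeps the large subunit from joining early, by 0.15, Eif1b by 0.08 and Eif1ad by 0.11. Eif1a stood at 7.93, 8.44 and 8.02 in dKO, against 8.23, 8.40 and 8.84 in control, a change of -0.36 ± 0.22.

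The X-linked Eif1ax stood at 11.19, 11.15 and 10.72 in dKO, against 11.14, 10.75 and 10.88 in control, a change of 0.10 ± 0.20. Its dimmest probe set went the other way (-1.04 ± 0.30) with all dKO arrays lower and did not pass (adjusted p over all probe sets = 0.101). Eif5a, the factor that carries hypusine and helps ribosomes past difficult peptide bonds, stood at 12.17, 12.12 and 12.22 in dKO, against 12.27, 12.04 and 12.13 in control, a change of 0.02 ± 0.16. Its relative Eif5a2 stood at 6.47, 5.58 and 5.10 in dKO, against 5.15, 6.05 and 6.22 in control, a change of -0.09 ± 0.38. The range within each group exceeded that difference.

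Several probe sets were available for 37 of the 53 genes, 140 probe sets in all, and in 15 of the 37 they differed in sign. At the level of probe sets, 6 passed downwards and 1 upwards, against 2.20% and 2.24% of the 34945 probe sets with 1 symbol, and no gene had passing probe sets of both signs. The passing ones were 2 each of Eif2a and Eif4b and 1 each of Eef1b2, Eef2 and Eef2k. Eif3f (adjusted p = 0.0581) and Eif3h (0.0648) missed the threshold there. The second Eef2 probe set, at 4.12 over the 6 arrays against 11.69 for the first, changed by 0.13, so Eef2 was not called with the mean of both (-0.36, adjusted p = 0.22).

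**Figure D4:**
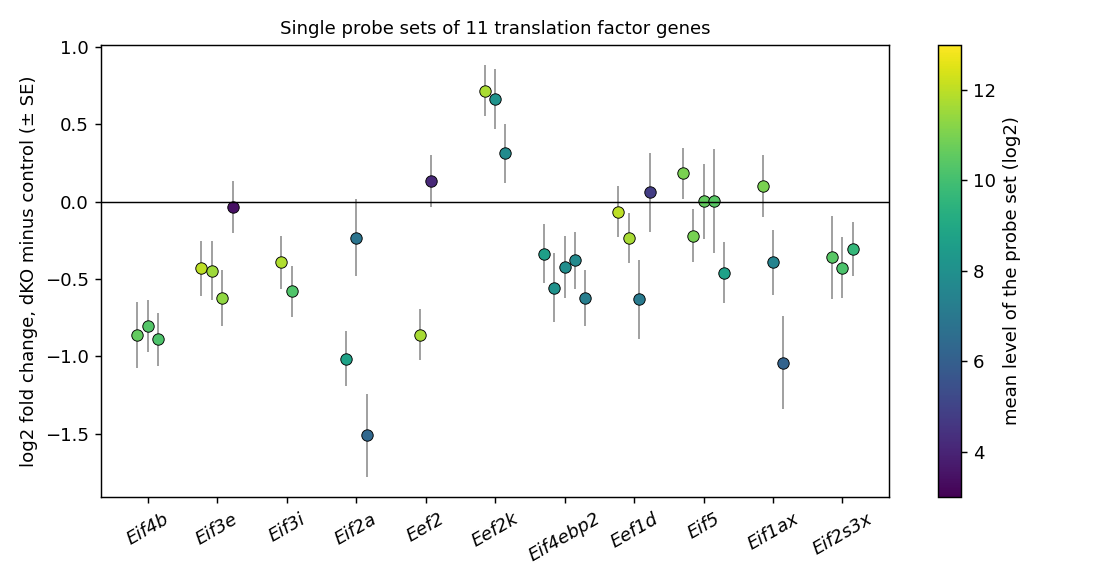
Log2 fold change (dKO minus control, y axis, with standard error bars) of every probe set of 11 translation factor genes, brightest first within each gene and coloured by mean log2 level. The 3 Eif4b probe sets lie between -0.89 and -0.80 and those of Eef2k between 0.31 and 0.72, while Eef2, Eef1d, Eif5 and Eif1ax have probe sets on both sides of 0.

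**Figure D5:**
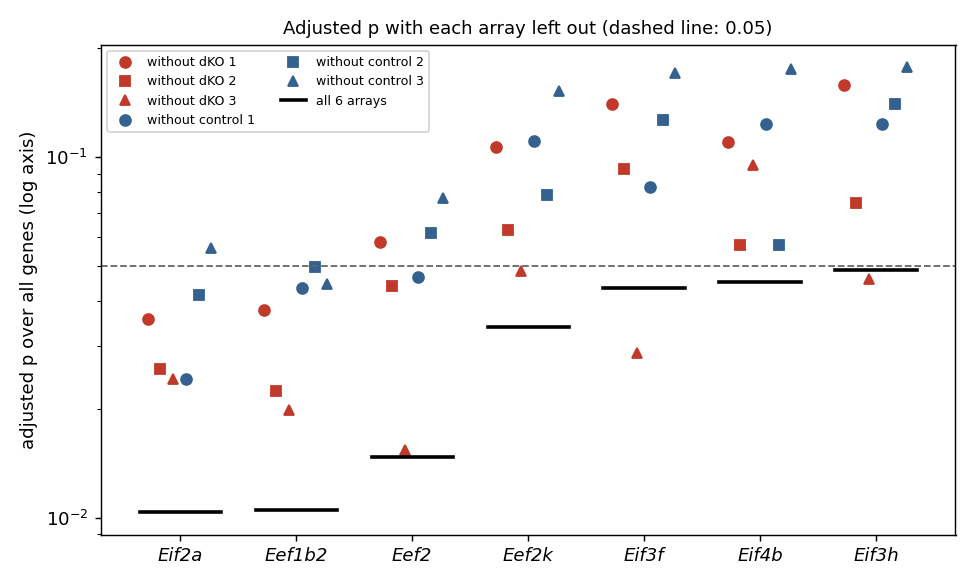
Adjusted p over all genes (y axis, log scale) of the 7 called genes with all 6 arrays (black lines) and with each array left out (points). Eef1b2 stays under 0.05 throughout, Eif2a crosses it without control 3, and Eif4b is above it whichever array is left out.

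Other genes of the translation pathway were read from 7 lists, with 54 of 56 genes measured. In these 3 were lower and 0 higher (limma, all genes), 5.56% lower against 2.85% over all genes, with a median of -0.05, and 11 had an unadjusted p under 0.05 in either direction, against 3318 of the 18193 genes in all. The number of lower genes in these lists, 3 in the main fit, fell to 1 without control 2, control 3 or dKO 1. It was also 1 without the pair of arrays with Xist. It was 5 without dKO 2 or with a variance trend, and 6 with array weights.

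Pdcd4, an inhibitor that binds eIF4A and keeps it from the scaffold, stood at 10.55, 10.88 and 10.50 in dKO, against 12.13, 12.04 and 12.06 in control. It fell by 1.44 ± 0.17 (adjusted p = 0.00174), a larger change than in any of the 53 factors, and no single array decided the call. Pabpc1, the poly(A)-binding protein that meets the cap complex and is itself made from a TOP mRNA, stood at 10.87, 11.10 and 11.001 in dKO, against 11.68, 11.90 and 11.90 in control. It fell by 0.84 ± 0.17 (adjusted p = 0.0193) and lost the call without dKO 1 (0.0736), control 2 (0.0868) or control 3 (0.0919). Gspt2, an X-linked release factor gene, stood at 4.85, 5.32 and 4.16 in dKO, against 5.92, 6.59 and 6.14 in control. It fell by 1.44 ± 0.30 (adjusted p = 0.0232) at a low level and lost the call without dKO 1 (0.0627), control 2 (0.0998) or control 3 (0.067).

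The poly(A) group as a whole lay below 0. All 6 of its genes had negative fold changes with a median of -0.53, against 7712 negative ones among all 18193 genes. In 5 of the 6 every dKO array was below control, while Pabpn1 (-0.13) overlapped. Over all genes 10.7% lay below control in this way. Among the 10158 genes with a mean log2 level of at least 6, where all 6 lie, it was 1646. Paip2, which pulls the poly(A)-binding protein off, changed by -0.56 ± 0.17 and Pabpc4 by -0.88 ± 0.26, and neither passed. Larp1, which binds the start of TOP mRNAs, changed by -0.71 ± 0.19 and missed the threshold (adjusted p = 0.0574), with all dKO arrays lower.

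The signalling and modifying enzymes upstream of the factors did not pass. Over all genes 5.97% passed in either direction, and 3318 of 18193 had an unadjusted p under 0.05. Against that share, 0 passing genes do not set lists this short apart. In the mTORC1 and MNK list 0 of 9 genes passed (limma; 1 with an unadjusted p under 0.05), and Mlst8, a subunit of mTORC1, had the smallest p with a change of 0.48 ± 0.17. In the list of eIF2 kinases and phosphatase subunits 0 of 6 passed (1 unadjusted), and Eif2ak4, the kinase that senses uncharged tRNA, changed by -0.48 ± 0.19. In the hypusine and diphthamide list 0 of 9 passed (1 unadjusted), with Dph6 at -0.51 ± 0.21. In the mitochondrial factor list 0 of 9 passed (1 unadjusted). There Guf1, an elongation factor of mitochondria, stood at 5.82, 7.11 and 4.82 in dKO, against 7.27, 7.02 and 6.94 in control, a change of -1.16 ± 0.47. Its dKO arrays varied widely, and it passed downwards without dKO 2 (-1.76, adjusted p = 0.0223).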

How the data were processed

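The authors' deposited table held log2 RMA values for 45101 probe sets on 6 arrays, per the submitters' processing notes. The version of RMA was not given in the sources used here. Per the labels' protocols, RNA was extracted with Trizol and amplified in 2 rounds before biotin labelling. Array medians lay between 5.91 and 5.94, and the number of arrays limits the precision. The platform annotation gave 1 symbol to 34945 probe sets. Symbols were updated through a RefSeq table (GRCm38.p6), which matched 34741.

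The groups were compared with limma 3.58.1 in R 4.3.3 (lmFit, eBayes, two-sided), adjusted over 18193 genes, with n = 3 arrays per group. Replicates are separate pools of mice. Genes named with values were those past the threshold, the smallest p and brightest of each role, and the X-linked ones. Eif3k, Eif3m, Eif3l, Eif4e, Larp1, Paip2 and Pabpc4 were given values after these were seen. Members, lists and alternatives were chosen with earlier results of these data known. Other scalings, probe set choices, variance models, thresholds, a replicate block and left-out arrays were tried as alternatives. The steps were tested on simulated data. No protein sequences were used. Figures were drawn with matplotlib 3.10.9.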

Additional observations from a re-analysis of the deposited data

How the results depend on the processing

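The main comparison called 1086 genes, and 6 translation factor genes were lower and 1 higher. The direction of every called gene named here was kept under all alternatives. Without single arrays the counts ran from 572 to 1081 for all genes, 1 to 6 for lower and 0 to 1 for higher translation factor genes, 1 to 4 for lower TOP genes, 0 to 3 for lower eIF3 genes and 1 to 5 for lower genes of the other translation lists. With a plain t-test 70 genes passed, with 0 translation factor genes and 0 of the other lists, while 16 of the 53 factors and 3318 of all 18193 genes had an unadjusted p under 0.05 by limma. At an adjusted p of 0.01 it was 437, with 0 factors and 1 of the other lists. Without dKO 1 and control 1 together it was 578, again with 0 factors and 1 other gene. Array weights gave 1697, with 10 lower factors, 5 of them in eIF3, and 6 other genes. With a variance trend, 5 eIF3 genes and 5 of the other lists were lower, and at an adjusted p of 0.1, 4 and 5. The filter on dim genes gave 4 eIF3 genes.

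Deviations of same-numbered arrays from their group means correlated at 0.06, -0.00045 and 0.02, and those of differently numbered arrays at -0.05 to 0.04. With 3 arrays per group these values cannot decide whether the shared replicate numbers pair the arrays. The arrays with Xist were both numbered 1. With the replicate block 999 genes passed, with 4 factors lower, 0 higher, 3 TOP genes and 1 eIF3 gene. Xist as a covariate gave 3 TOP genes, 1 eIF3 gene and 0 higher factors. Cyclic loess gave 3 TOP genes and 1 eIF3 gene. Averaging a gene's probe sets gave 3 TOP genes and 0 higher factors, and leaving out _x_at and _s_at probe sets 0 higher factors. The counts for TOP and eIF3 genes were chosen after seeing the data. The cause of these changes was not tested. The median of the 53 log2 fold changes ran from -0.22 with the mean of probe sets to -0.06 with the filter. RMA values have no detection call here, so levels under 6, where 4 of the 53 factors lie, may be near background.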
